A study of Mus musculus with 4 samples.

Results

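The genes described here encode the machinery of mitosis: the cyclins and kinases that start it, the spindle checkpoint, the kinetochore, the kinesin motors, the spindle and cytokinesis proteins and the condensins. A list of 55 such genes was matched by symbol to the array, taking for each gene the probe set that names it alone and, where several do, the one with the highest mean over the 4 arrays. Of the 55 genes, 54 were found among the 19938 genes with such a probe set, and 52 of them were represented by 1 probe set. Ccnb1, a B-type cyclin gene, was the exception and has no value here.

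The arrays measured total RNA of CD4+ CD8- thymocytes sorted from C57BL/6n mice of 8 weeks that were wild type (WT, labelled miR-142+/+) or carried no functional copy of the microRNA gene Mir142 (labelled miR-142-/-). From each genotype CD69+ Qa2- and CD69- Qa2+ populations were sorted, after CD8+ cells had been depleted with beads. The first is taken here as newly selected and the second as close to leaving the thymus. By the labels, the WT pool was of 3 female and 2 male mice and the miR-142-/- pool of 1 female and 3 male mice, which sex-linked transcripts given below go against, and both populations of a genotype came from the same pool, with 1 array for each population. No group was replicated, so genotype differences carry no error and no p-value, and precision is limited by having 4 arrays.

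In mitosis, cyclin and kinase complexes condense the chromosomes and build a spindle. Kinetochores attach the chromosomes to it, a checkpoint holds the cell until all are attached, and the anaphase-promoting complex then releases the sister chromatids. Most of these proteins are made only in cells approaching division. Their genes are known to be held off in resting cells, and switched on together before mitosis, through promoter elements called CHR (cell cycle genes homology region) and CCAAT boxes. Most CD4 single-positive thymocytes are not dividing, so in a bulk sample the level of a mitotic transcript reflects both the number of dividing cells and the amount per cell, which cannot be told apart here.

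Promoter windows were examined because the genes moved together between the arrays. RefSeq windows (GRCm38.p6), running from 250 bases before to 50 bases after an annotated start, were in the table for 47 of the 55 genes. Of these, 37 (78.7%) held a CHR match, TTTGAA or TTCGAA on either strand, against 19.0% of 15614 array genes with a window. A CCAAT match on either strand was present in 34 (72.3%), against 41.7% of array genes, and both motifs in 30 (63.8%), against 7.69%. The GC content of the windows was similar, with a median of 58.7% for the mitosis genes and 57.5% for array genes. The windows of the 3 genes with the largest decrease in miR-142-/- (ranked on whichever population differed less) among those holding both motifs are shown first. Cdc20 was added after its values were seen, because it had the smallest difference in Qa2- cells among genes with a window. All read 5′ to 3′ towards the gene, with CHR and CCAAT matches in capitals.
Bub1, chr2:127831810-127832109, minus strand: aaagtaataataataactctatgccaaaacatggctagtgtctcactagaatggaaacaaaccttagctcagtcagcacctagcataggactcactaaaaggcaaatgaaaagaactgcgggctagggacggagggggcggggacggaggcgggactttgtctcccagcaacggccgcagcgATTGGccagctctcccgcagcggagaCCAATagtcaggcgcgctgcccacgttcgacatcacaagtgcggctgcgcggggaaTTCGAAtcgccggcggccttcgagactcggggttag
Mki67, chr7:135716330-135716629, minus strand: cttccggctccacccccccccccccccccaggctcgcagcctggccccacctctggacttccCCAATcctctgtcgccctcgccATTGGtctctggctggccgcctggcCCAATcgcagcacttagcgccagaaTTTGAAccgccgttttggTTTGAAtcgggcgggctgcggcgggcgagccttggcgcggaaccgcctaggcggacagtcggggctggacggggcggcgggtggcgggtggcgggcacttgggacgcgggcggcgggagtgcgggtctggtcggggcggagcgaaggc
Top2a, chr11:99024140-99024439, minus strand: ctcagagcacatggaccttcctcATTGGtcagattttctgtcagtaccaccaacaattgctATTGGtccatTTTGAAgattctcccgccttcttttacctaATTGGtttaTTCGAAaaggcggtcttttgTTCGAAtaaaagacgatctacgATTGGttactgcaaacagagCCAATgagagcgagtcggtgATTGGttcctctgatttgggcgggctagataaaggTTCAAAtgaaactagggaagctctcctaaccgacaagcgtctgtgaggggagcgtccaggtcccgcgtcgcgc
Cdc20, chr4:118437294-118437593, minus strand: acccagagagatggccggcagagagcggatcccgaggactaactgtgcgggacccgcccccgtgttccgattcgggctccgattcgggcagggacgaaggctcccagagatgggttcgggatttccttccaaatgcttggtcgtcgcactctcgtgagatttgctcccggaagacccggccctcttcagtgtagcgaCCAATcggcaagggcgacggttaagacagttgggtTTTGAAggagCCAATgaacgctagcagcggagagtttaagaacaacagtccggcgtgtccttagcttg
Top2a held 4 CHR and 6 CCAAT matches, Mki67 2 and 3, Bub1 1 and 2 and Cdc20 1 and 2. A match is a run of letters and not a known binding site.

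The 2 motifs lay at different distances from the start. CHR matches in the member windows numbered 51 and began at a median position of -9 from the start, with 24 of them at or after it. The 79 CCAAT matches began at a median position of -67, with 4 at or after it. In 1 case a CHR and a CCAAT match overlapped. Genes whose window held a CHR match (37) had a median genotype difference of -1.16 in Qa2- and -1.66 in Qa2+ cells, and those with a window without one (9) had -1.15 and -1.63.

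**Figure D1:**
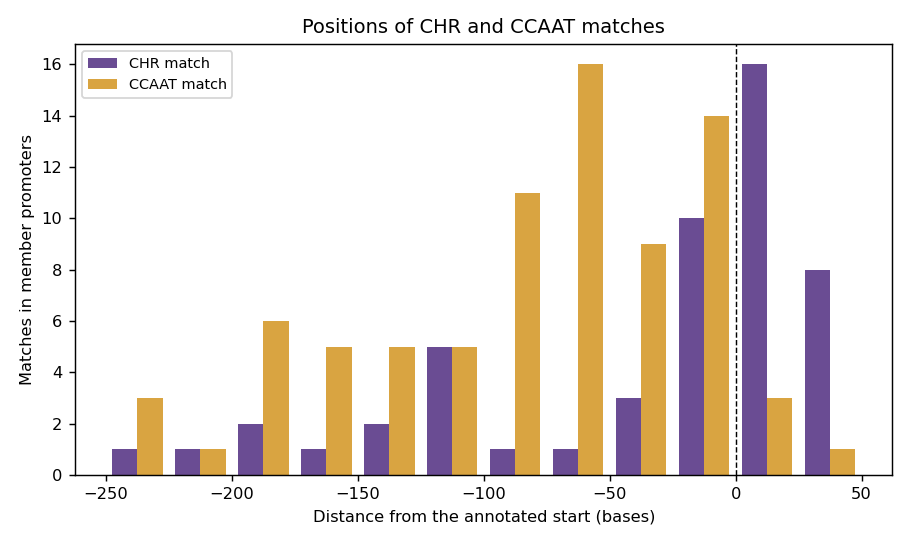
Positions of CHR (purple) and CCAAT (yellow) matches in the promoter windows of the mitosis genes, in bins of 25 bases; the horizontal axis is the distance in bases from the annotated start (dashed line) and the vertical axis the number of matches. CHR matches are most frequent in the 25 bases from the start (16 matches), CCAAT matches between positions -75 and -50 (16 matches).

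Some facts of the arrays bear on every comparison below. The Mir142 probe set read log2 10.11 (Qa2-) and 9.41 (Qa2+) on the WT arrays against 5.29 and 4.88 on the miR-142-/- arrays. A log2 value of 5.87 served as background: 95% of 1194 genes for olfactory or vomeronasal receptors, which T cells do not use, lay under it. Cd4 read 12.36 to 12.64 and Cd3e 12.75 to 12.92 on all arrays. Cd69 read 11.32 (WT) and 11.51 (miR-142-/-) in Qa2- cells and 10.55 in Qa2+ cells of both genotypes. Its transcript was thus lower in the cells sorted as CD69- but stayed far above background there. Xist, which coats the silenced X, read 12.67 and 12.14 on the WT arrays against 5.06 and 4.83, and Eif2s3y, a Y-linked gene, 4.29 and 4.39 against 10.55 and 10.58. Y-linked genes were thus below background on the WT arrays and Xist on the miR-142-/- arrays, which goes against labels that give both pools mice of both sexes. By these transcripts sex changed together with genotype on the arrays. A contribution of sex to the genotype differences below was not tested and cannot be told apart from that of genotype.

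Mitosis genes were lower in miR-142-/- than in WT in both populations, and by more in Qa2+ cells. The median difference over the 54 genes was -1.14 on the log2 scale in Qa2- cells, 2.21-fold, and -1.63 in Qa2+ cells, 3.10-fold, while the median over all genes was 0.01 and 0.00. At least 2-fold lower in miR-142-/- were 30 of the 54 genes in Qa2- cells, against a background of 0.888% of all genes, and 46 in Qa2+ cells, against 1.23%. These counts take values below background as deposited. With such values raised to the threshold, so that a gene counts only where its bound passes, they were 26 (background 0.792%) and 44 (background 1.13%), and the medians were -0.98 and -1.57. At least 1.5-fold, the counts were 48 (background 2.54%) and 52 (background 3.32%) as deposited and 45 and 51 with the threshold as floor. The 30 genes in Qa2- cells were also among the 46 in Qa2+ cells, and 0.637% of all genes were 2-fold lower in both. The counts below 0 were 53 in each population (47.6% and 49.4% of all genes), and 48 genes were 1.5-fold lower in both (1.82% of all genes). No mitosis gene was 1.5-fold higher in either population (background 2.1% and 3.17%). Of the 177 genes on the array at least 2-fold lower in Qa2- cells, 16.9% were these mitosis genes, and of the 245 in Qa2+ cells, 18.8%.

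Both WT arrays read above both miR-142-/- arrays for 53 of the 54 genes, which held for 17.7% of all genes. Smc4 was the exception, and Cdc25c held by values below background. The gap between the lower WT and the higher miR-142-/- value was narrowest for Ndc80, at 0.04, followed by Cenpf at 0.21. The decrease was larger in Qa2+ than in Qa2- cells for 48 genes (51.5% of all genes). Both comparisons use different arrays, but the populations of a genotype share a pool of mice and are not replicates.

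**Figure D2:**
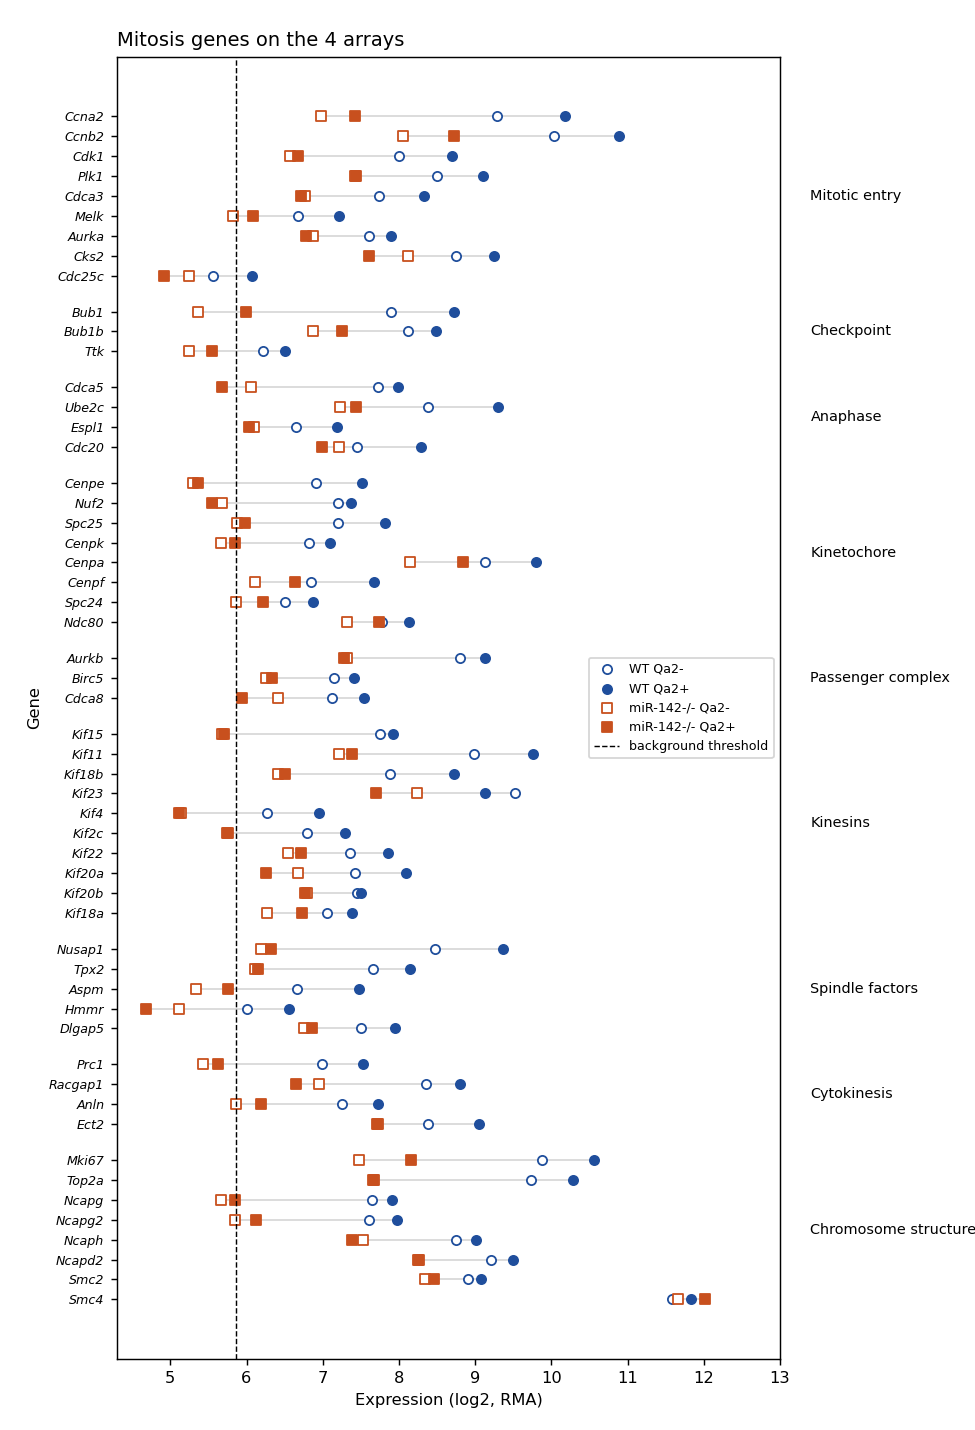
Expression of the 54 mitosis genes on the 4 arrays, grouped by role; the horizontal axis is log2 RMA expression, circles are WT and squares miR-142-/-, open symbols Qa2- and filled symbols Qa2+ cells, and the dashed line is the background threshold of 5.87. Both WT values lie to the right of both miR-142-/- values for every gene except Smc4.

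**Figure D3:**
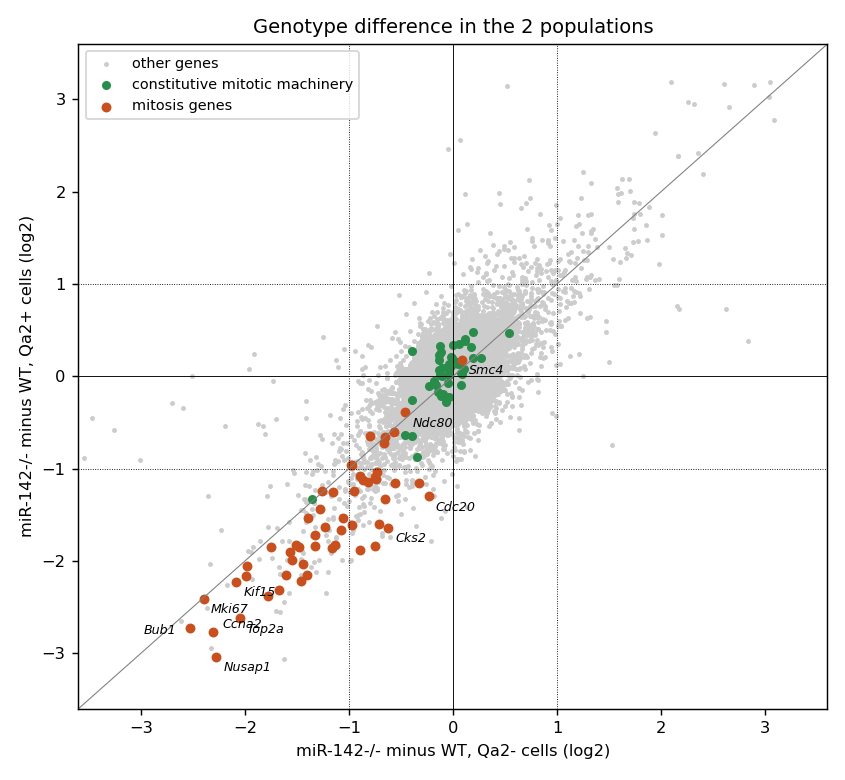
Difference between miR-142-/- and WT in Qa2- cells (horizontal axis, log2) and Qa2+ cells (vertical axis, log2) for mitosis genes (orange), mitotic machinery expressed through the cycle (green) and other genes (grey); dotted lines mark 2-fold, the diagonal equal differences, and 7 genes fall outside the axes. The mitosis genes lie in the lower left, from Nusap1 at -2.28 and -3.04 upwards, except Smc4, just above 0 on both axes at 0.08 and 0.18.

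Among the 9 genes of mitotic entry, 4 were at least 2-fold lower in Qa2- and 8 in Qa2+ miR-142-/- cells. These and the counts for the roles below take values below background at the threshold, and Cdc25c is the gene not counted in Qa2+ cells. Ccna2, the cyclin of S and G2 phase, read 9.28 (Qa2-) and 10.18 (Qa2+) in WT against 6.98 and 7.42 in miR-142-/-, the order used for every gene below. Ccnb2, a B-type cyclin, read 10.04 and 10.88 in WT against 8.05 and 8.72 in miR-142-/-. Cdk1, the kinase both cyclins activate, read 8.01 and 8.70 against 6.57 and 6.67. In all 3 the WT arrays stood well apart from the miR-142-/- arrays, by 1.86 for Ccna2. Melk, a kinase of dividing cells, read 6.68 and 7.21 in WT and 5.82, below background, and 6.09 in miR-142-/-. Cdc25c, the phosphatase that activates Cdk1, was below background on 3 arrays, at 5.56 in WT Qa2- and 5.24 and 4.92 in miR-142-/- cells, and read 6.07 in WT Qa2+ cells. Its difference of -0.32 in Qa2- cells is therefore not a measured one.

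The polo kinase gene Plk1 differed by -1.07 in Qa2- and -1.66 in Qa2+ cells, the spindle pole kinase gene Aurka by -0.74 and -1.11, and Cdca3, an adaptor that promotes mitotic entry, by -0.97 and -1.61. Cks2, a small subunit of cyclin-dependent kinases, had 3 single-gene probe sets. Their Qa2- differences were -0.62, -0.72 and -0.69 and their Qa2+ differences -1.64, -1.56 and -1.57, so the choice among them made little difference.

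The 3 spindle checkpoint kinase genes were all lower in miR-142-/-. Bub1, which recruits the checkpoint to kinetochores, read 7.89 and 8.72 in WT against 5.37 and 6.00 in miR-142-/-. The Qa2- value of miR-142-/- lay below background, so the decrease there was at least 4.07-fold. Bub1b, its paralog in the inhibitor of the anaphase-promoting complex, read 8.12 and 8.49 against 6.87 and 7.25. Ttk, the kinase at the top of the checkpoint, read 6.22 and 6.51 in WT and was below background at 5.25 and 5.55 in miR-142-/-. Its decrease was at least 1.28-fold and 1.56-fold. Bub1b differed by nearly the same amount in both populations, -1.26 and -1.24.

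Of the 4 genes that act at anaphase, Cdc20 and Espl1 were less than 1.5-fold lower in Qa2- cells. Cdc20, the activator of the anaphase-promoting complex, read 7.45 and 8.28 in WT against 7.22 and 6.99 in miR-142-/-, a difference of -0.23 in Qa2- and -1.30 in Qa2+ cells. Espl1, the separase that cuts cohesin, read 6.65 and 7.18 against 6.10 and 6.03. Both were at least 2-fold lower in Qa2+ cells. Ube2c, the ubiquitin-conjugating enzyme of the same complex, read 8.39 and 9.29 against 7.22 and 7.44. Cdca5 (sororin), which protects cohesion until anaphase, read 7.73 and 7.98 against 6.05 and 5.67, the latter below background, a decrease in Qa2+ cells of at least 4.34-fold.

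Kinetochore genes differed among themselves, also within 1 complex. The Ndc80 complex, which binds spindle microtubules, has 4 subunits, and their genes differed from each other in the size of the decrease. Ndc80 itself read 7.78 and 8.13 in WT against 7.32 and 7.74 in miR-142-/-, a difference of -0.46 and -0.39, less than 1.5-fold. Nuf2, its partner, read 7.19 and 7.37 in WT and was below background in miR-142-/- at 5.68 and 5.54, at least 2.51-fold and 2.83-fold lower. Spc25 read 7.20 and 7.82 against 5.88 and 5.98, whereas Spc24 differed by -0.65 and -0.66. Probe sets of different genes respond differently to the same change in RNA, so unequal differences on the array need not be unequal changes in the transcripts.

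At the centromere, Cenpa, the histone variant that marks it, read 9.12 and 9.80 in WT against 8.14 and 8.84 in miR-142-/-. Cenpf, a protein of the outer kinetochore, read 6.85 and 7.67 against 6.12 and 6.64. Cenpe, a kinetochore motor, read 6.91 and 7.51 in WT and was below background in miR-142-/- at 5.30 and 5.36, at least 2.06-fold and 3.14-fold lower. Cenpa differed by nearly the same amount in both populations, -0.98 and -0.96. Cenpk, of the inner kinetochore, was below background on both miR-142-/- arrays and at least 1.93-fold and 2.35-fold lower.

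The chromosomal passenger complex corrects faulty attachments and later marks the cleavage site. Its kinase gene Aurkb read 8.80 and 9.13 in WT against 7.31 and 7.28 in miR-142-/-. Birc5 (survivin) read 7.15 and 7.41 against 6.26 and 6.33, and Cdca8 (borealin) 7.13 and 7.54 against 6.41 and 5.94. All 3 were at least 2-fold lower in Qa2+ cells and 1, Aurkb, in Qa2- cells.

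Of the 10 kinesin genes, 9 were at least 1.5-fold lower in Qa2- cells and all 10 in Qa2+ cells, with 4 and 8 of them at least 2-fold lower. Kif4 was the gene not counted at 1.5-fold. Kif15, a motor that keeps the spindle bipolar, read 7.75 and 7.92 in WT and was below background in miR-142-/- at 5.67 and 5.70, at least 3.70-fold and 4.16-fold lower. Kif11, the main motor that pushes the poles apart, read 8.99 and 9.76 against 7.21 and 7.38. Kif18b, which shortens astral microtubules, read 7.88 and 8.72 against 6.42 and 6.51. These 3 had the largest decreases by that ranking. Kif18a, its relative that dampens chromosome movements, read 7.06 and 7.38 against 6.26 and 6.73, and differed by more in Qa2- cells (-0.79) than in Qa2+ cells (-0.65). Kif23, the motor of the central spindle, read 9.52 and 9.13 in WT against 8.24 and 7.69 in miR-142-/-.

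Kif23 was the single gene of the list read lower in Qa2+ than in Qa2- WT cells. The others of the family were the chromosome arm motors Kif4 and Kif22 (-0.81 and -1.15), the microtubule depolymerase Kif2c, and Kif20a (-0.74 and -1.84) and Kif20b (-0.66 and -0.72), motors of the central spindle and midbody. Kif4 and Kif2c were below background on both miR-142-/- arrays, at least 1.32-fold and 1.90-fold lower in Qa2- and 2.11-fold and 2.69-fold lower in Qa2+ cells.

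Of the 5 spindle factor genes, 2 were at least 2-fold lower in Qa2- and 4 in Qa2+ cells. Nusap1, which bundles microtubules near chromosomes, had the largest difference of the list in Qa2+ cells. It read 8.47 and 9.36 in WT against 6.19 and 6.32 in miR-142-/-. Tpx2, which activates Aurora A on the spindle, read 7.66 and 8.14 against 6.12 and 6.15, and Aspm, a spindle pole protein, 6.66 and 7.48 against 5.33 and 5.76. Both miR-142-/- values of Aspm lay below background, so its decrease was at least 1.73-fold and 3.06-fold. Hmmr, a spindle assembly protein, was also below background on both miR-142-/- arrays with a bound of 1.62-fold in Qa2+ cells, and Dlgap5, which stabilises the fibres to the kinetochores, differed by -0.74 and -1.09.

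In cytokinesis, Prc1 crosslinks the central spindle, and Racgap1 with Kif23 forms the complex that brings the exchange factor Ect2 to the cleavage site, where anillin (Anln) builds the furrow. Prc1 read 6.99 and 7.53 in WT and was below background in miR-142-/- at 5.43 and 5.63, at least 2.18-fold and 3.18-fold lower. Racgap1 read 8.36 and 8.80 against 6.96 and 6.64. Anln read 7.25 and 7.73 against 5.86, just below background, and 6.19. Ect2 differed by -0.66 in Qa2- and -1.33 in Qa2+ cells, so all 4 genes were at least 2-fold lower in Qa2+ cells and 3 of them in Qa2- cells.

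Among the genes of chromosome structure, the condensin subunits differed in the size of the difference, on 1 probe set each and without a test. Smc4 and Smc2 encode the ATPase pair that both condensin complexes share. Smc4 read 11.58 and 11.84 in WT against 11.67 and 12.02 in miR-142-/-, a difference of 0.08 and 0.18, and Smc2 read 8.91 and 9.07 against 8.34 and 8.46, a difference of -0.57 and -0.61. Both were thus less than 1.5-fold lower in at least 1 population, and Smc4 was the 1 gene of the list that was not lower in either. The 4 subunits on this list that are specific to a complex had larger differences by value. Outside the list, the condensin II subunit genes Ncapd3 and Ncaph2 did not, at -0.23 and -0.21 and at -0.06 and -0.28. Ncapg, of condensin I, read 7.65 and 7.91 in WT and was below background in miR-142-/- at 5.67 and 5.85, at least 3.44-fold and 4.12-fold lower. Ncaph and Ncapd2, of the same complex, differed by -1.23 and -1.63 and by -0.95 and -1.24. Ncapg2, of condensin II, differed by -1.85 in Qa2+ cells. Its Qa2- value in miR-142-/- lay below background, which bounds that decrease at 3.33-fold or more.

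Mki67, the coat protein of mitotic chromosomes used to mark dividing cells, read 9.87 and 10.57 in WT against 7.48 and 8.16 in miR-142-/-. Top2a, the topoisomerase that untangles sister chromatids, read 9.73 and 10.28 against 7.68 and 7.66. Mki67 differed by nearly the same amount in both populations, -2.40 and -2.41, and Top2a by -2.05 and -2.62. A second single-gene probe set of Top2a was below background on all arrays and was not used.

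Other mitotic genes, from lists chosen with earlier results of these data known, were set beside these. Of 52 further genes known to be expressed periodically, 15 were at least 2-fold lower in Qa2- and 30 in Qa2+ miR-142-/- cells as deposited, with medians of -0.75 and -1.15, and 11 and 25 with the threshold as floor. The 3 with the largest mean difference as deposited included the cyclin gene Ccnf (-1.67 and -2.07) and the kinetochore scaffold gene Knl1 (-1.85 and -1.79). The other was the centriole gene Stil, whose rank rests on miR-142-/- values below background (5.48 and 5.52, against 7.41 and 7.71 in WT). Fam83d, which positions chromosomes on the spindle, was higher, by 0.94 and 0.50. Of 28 S phase genes, 17 in Qa2- and 11 in Qa2+ cells passed 2-fold as deposited (16 and 11 with the floor), and the list medians were -1.09 and -0.92, led by Rrm2 (-2.17 and -2.25), Pole (-2.33 and -2.03) and Dtl (-1.86 and -1.98).

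Mitotic machinery that is expressed throughout the cycle gave lower counts. Of 45 genes for subunits of the anaphase-promoting complex, cohesin, phosphatases and other constitutive parts, 1 was at least 2-fold lower in Qa2- and the same count in Qa2+ cells, with medians of -0.05 and 0.08. That gene was Wee1, the kinase that inhibits Cdk1, at -1.36 and -1.33. The next by mean size were Pmf1, of the kinetochore, at -0.34 and -0.87 and Anapc11, the catalytic subunit of the anaphase-promoting complex, at -0.46 and -0.63. CHR matches were in the windows of 23.7% of 38 such genes and 58.7% of 46 of the further periodic genes. Among 23 S phase genes with a window the share was 21.7%, although the medians of that list were -1.09 and -0.92.

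**Figure D4:**
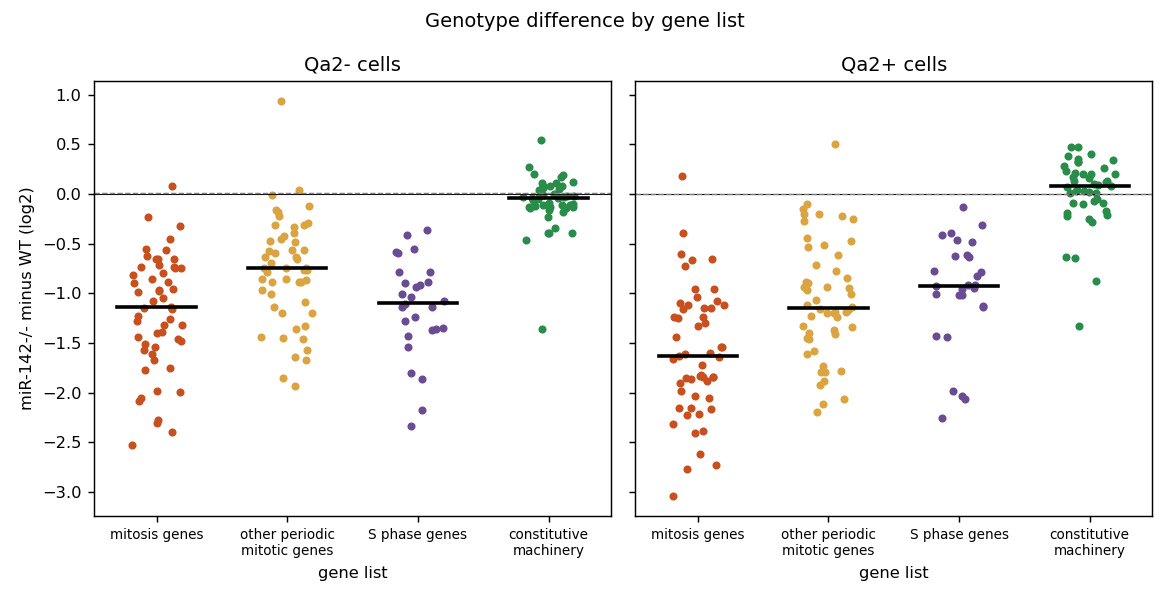
Difference between miR-142-/- and WT (vertical axis, log2) in Qa2- cells (left) and Qa2+ cells (right) for each gene of 4 lists; points are genes, black bars the list medians, and the dashed line the median of all genes. Medians are -1.14 and -1.63 for the mitosis genes and -0.05 and 0.08 for the constitutive machinery.

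Markers of other cells moved with genotype too. Of 15 markers for innate-like or effector T cells, 10 were at least 2-fold lower in Qa2- and 8 in Qa2+ miR-142-/- cells as deposited (10 and 7 with the floor), and the log2 of their summed level was 12.98 and 13.25 in WT against 11.29 and 11.78 in miR-142-/-. Of 7 regulatory T cell genes 2 were 2-fold lower in each population, Foxp3 (-1.19 and -1.66) and Ctla4 (-2.61 and -2.65), and 1 was 2-fold higher, Gpr83 (1.03 and 1.27). In Qa2- cells 5 of the 7 lay above 0 and in Qa2+ cells 5 lay below 0. The summed level was 13.19 and 13.30 for WT against 13.44 and 13.18. For 8 double-positive thymocyte genes the summed level was 10.80 and 11.44 for WT against 10.73 and 11.35. Within this sum single genes moved in opposite directions, given here with the Qa2- difference first. Cd8b1 was lower in miR-142-/- (-0.73, then -1.23), while Arpp21 (1.48, then 0.48), Aqp11 (0.66, then 0.30) and Dntt (0.47, then 1.08) were higher. Of the 8 genes, 5 lay above 0 in the Qa2- comparison and 4 in the other. The part of all these markers in the result was not tested. Of 4 B cell markers 1, Cd79b, was above background, and Ms4a1 and Cd79a were below it on all arrays.

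Between the stages, most mitosis genes read higher in the Qa2+ population of WT mice, and less so in miR-142-/-. The median stage difference was 0.51 in WT, 1.42-fold, with 53 of 54 genes above 0 (40.5% of all genes), and 0.10 in miR-142-/-, 1.07-fold, with 34 above 0 (39.7% of all genes). The median over all genes was -0.05 and -0.06. Past 1.5-fold in favour of Qa2+ cells were 20 genes in WT (background 2.07%) and 4 in miR-142-/- (background 2.03%), and no gene of the list was 1.5-fold lower in either (background 2.88% and 2.83%). The difference between the stage differences had a median of -0.37 over the list, with 18 genes at least 1.5-fold below 0, against 1.37% of all genes. With values below background at the threshold, 26 genes were above 0 and 3 past 1.5-fold in miR-142-/-, and 18 was again the count 1.5-fold below 0. The median stage difference with this floor was 0 in miR-142-/- and 0.50 in WT. Shares of all genes with the floor are not given, so these counts have no background beside them. The difference between the stage differences was not tested, since no residual degree of freedom remains. It equals the genotype difference in Qa2+ cells minus that in Qa2- cells, so it restates the larger decrease in Qa2+ cells and is not a second result.

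Averaged over both genotypes and tested with limma across 12591 genes above background, with genotype as a block, 12 of the 52 mitosis genes tested rose from Qa2- to Qa2+ cells and 1 fell, against 4.77% and 8.35% of all genes tested. Cdc25c and Hmmr were not tested because their means lay below background. The genes that rose were Ccnb2, Bub1, Mki67, Cenpa, Cenpf, Ccna2, Aspm, Anln, Kif18a, Ndc80, Bub1b and Melk, and Kif23 fell. SEs rest mainly on the spread pooled over all genes, with 1 residual against 6.94 prior degrees of freedom, and do not measure the spread between mice.

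Ccnb2 rose by 0.76 ± 0.10 (limma estimate on the log2 scale with its SE over 2 pairs; adjusted p = 0.00421 after Benjamini-Hochberg). The WT pair gave 0.85 and the miR-142-/- pair 0.67. Mki67 rose by 0.69 ± 0.10 (limma adjusted p = 0.00505) and Cenpa by 0.68 ± 0.10 (limma adjusted p = 0.00509). In these 3 the stage differences of the genotypes were close, at 0.69 and 0.68 for Mki67 and 0.67 and 0.70 for Cenpa. That closeness is not a separate result. The 1 residual degree of freedom is the gap between the stage differences of the genotypes, so a small p favours genes where they are close. Bub1 rose by 0.73 ± 0.10 (limma adjusted p = 0.00509), from 0.83 for the WT pair and 0.63 for the miR-142-/- pair, where the Qa2- value lay below background. Ccna2 rose by 0.67 ± 0.13 (limma adjusted p = 0.0151), with 0.90 and 0.44, and Cenpf by 0.67 ± 0.11 (limma adjusted p = 0.00921), with 0.82 and 0.52. Here WT rose by more than miR-142-/-, a difference that was not tested.

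The remaining 6 rises were smaller in size. Aspm rose by 0.62 ± 0.12 (limma adjusted p = 0.016), with both miR-142-/- values below background. Anln, Kif18a, Ndc80, Bub1b and Melk rose by 0.41, 0.40, 0.38, 0.38 and 0.40, with limma adjusted p between 0.0372 and 0.0491. For Anln and Melk the Qa2- value of miR-142-/- was not above background. Kif23 fell by 0.47 ± 0.10 (limma adjusted p = 0.0247), by 0.38 in WT and 0.55 in miR-142-/-. Its partner Racgap1 differed by 0.44 in WT and -0.31 in miR-142-/- and did not pass (limma adjusted p = 0.836). Without the genotype block 0 of the 52 genes passed, none of them at an unadjusted p under 0.05. That fit leaves the genotype differences in the residual, so it cannot decide on stage for genes that differ this much by genotype. With arrays centred on their medians 24 rose and 1 fell, against 1076 and 721 of 12591 genes tested.

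Several genes with large genotype differences had a larger stage difference in WT than in miR-142-/- by value. This restates their larger decrease in Qa2+ cells and was not tested. Nusap1 differed between stages by 0.89 in WT and 0.13 in miR-142-/- (limma adjusted p = 0.0828 for the average), Top2a by 0.56 and -0.01 (limma adjusted p = 0.236), Kif11 by 0.77 and 0.17 (limma adjusted p = 0.0725) and Ube2c by 0.91 and 0.21 (limma adjusted p = 0.0539). Double-positive thymocyte markers also read higher in Qa2+ cells, 5 of 7 tested genes rising and 0 falling by limma (5 rising at an unadjusted p under 0.05). Such markers belong to a stage before both populations, so their rise goes against the order of stages taken from the sort. By value the stage difference was lower in miR-142-/- than in WT for 7 of the 8 on the list (51.5% of all genes). Rag1 had 2.72 in WT and 1.90 in miR-142-/-, and Arpp21 1.79 and 0.79. Dntt went the other way, at 0.99 and 1.60. Of 7 regulatory T cell genes 3 rose, Foxp3 by 1.91, Il2ra by 0.70 and Ctla4 by 0.58, and 1, Ikzf2, fell by 0.60. Of 4 myeloid genes tested 2 rose, Lyz2 by 1.15 and H2-Aa by 0.82, with the log2 of the summed level of 6 myeloid genes at 8.66 and 9.14 in the Qa2- and Qa2+ cells of WT and at 8.50 and 8.79 in those of miR-142-/-. Of 14 innate-like and effector genes tested 2 rose, Crip1 by 1.37 and Gzma by 0.57, and 0 fell. In WT, 4 of the 15 on the list were at least 2-fold lower in Qa2+ cells and 2 higher (107 and 73 of 19938 genes). The 4 were Gzmb (-2.87), Klrd1 (-1.83), Nkg7 (-1.32) and Cxcr6 (-1.20). In miR-142-/-, 0 were 2-fold lower and 2 higher (109 and 101 of 19938 genes). The part of these cell markers in the stage differences was not tested.

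**Figure D5:**
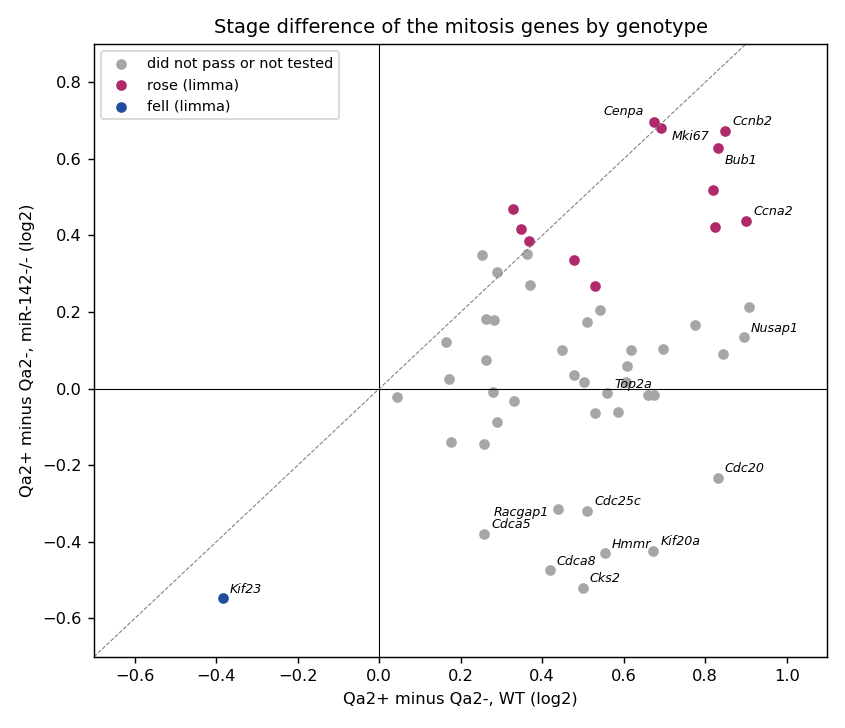
Stage difference, Qa2+ minus Qa2-, of the 54 mitosis genes in WT (horizontal axis, log2) and miR-142-/- (vertical axis, log2); pink points rose and the blue point fell in the averaged limma test, grey points did not pass or were not tested, and the dashed line marks equal differences. Most points lie below the dashed line, and 53 of 54 lie to the right of 0.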

How the data were processed

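The authors deposited 1 log2 value for each probe set and array. Per the submitters' processing notes, RMA and Partek were used, without a stated version. RMA equalises array distributions and compresses differences of dim probe sets. Everything else was computed here. Of 35557 probe sets, 21789 name 1 gene in the platform annotation, 1621 several and 12147 none, and symbols were updated by Entrez ID (21698 matched, GRCm38.p6). Groups follow the sample titles and sorting entries; 1 free-text description, of miR-142-/- Qa2- cells, names Qa2+ cells instead. Differences are miR-142-/- minus WT or Qa2+ minus Qa2-; where only the miR-142-/- value was below background, a fold is a lower bound against the threshold. Their SD over receptor genes was 0.15 and 0.18 for genotype (Qa2-, Qa2+) and 0.22 and 0.21 for stage (WT, miR-142-/-). Stage was tested with limma 3.58.1 in R 4.3.3 (two-sided, Benjamini-Hochberg, threshold 0.05).

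Members and lists were chosen with earlier results of these data known. All members are named. All 4 values are given for the 3 with the largest smaller genotype difference in each role, for any less than 1.5-fold apart, and for those passing limma. Other settings tried were array centring, quantile normalization, the mean of probe sets, background filters and floors, 1.5-fold, no genotype block, single genotype pairs and a variance trend.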

Additional observations from a re-analysis of the deposited data

Results flagged for a closer look

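For 8 genes the stage difference was positive in WT and negative in miR-142-/-, each beyond the SD of receptor genes (0.22 and 0.21), which drew attention to them. With 1 pair of arrays per genotype the difference was not tested, and it restates the larger decrease of these genes in Qa2+ cells. The share of all genes meeting the same rule is not given here, so the count is not read as a result about the list. The miR-142-/- minus WT difference of the stage differences was -1.10 for Kif20a (0.67 in WT and -0.42 in miR-142-/-), -1.06 for Cdc20 (0.83 and -0.23), -1.02 for Cks2 (0.50 and -0.52) and -0.98 for Hmmr (0.55 and -0.43). It was -0.89 for Cdca8 (0.42 and -0.47), -0.83 for Cdc25c (0.51 and -0.32), -0.75 for Racgap1 (0.44 and -0.31) and -0.64 for Cdca5 (0.26 and -0.38). Cdc25c and Hmmr were below background on both miR-142-/- arrays, and Cdca5 in Qa2+ cells, so their stage differences in miR-142-/- involve values at background. With the threshold as floor these genes no longer meet the rule. Cdc25c was also below background in WT Qa2- cells, at 5.56. All 3 probe sets of Cks2 gave the same pair of signs.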

How the results depend on the processing

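Genotype differences kept their direction under every setting run for the 53 genes lower in miR-142-/-, except that Cdc25c in Qa2- cells came to 0 when values below background were raised to the threshold. The median in Qa2- cells moved from -1.14 to -0.98 under that same floor, and the count of genes at least 2-fold lower there, 30, was 48 at 1.5-fold. The stage calls depended on scaling and on the block. By limma 12 genes rose as deposited, 24 with arrays centred on their medians and 21 after quantile normalization, and centring moved the median stage difference of all genes from -0.05 to 0.05 in WT and from -0.06 to 0.01 in miR-142-/-. Over all genes tested, 600 of 12591 rose as deposited, 1076 of 12591 with centred arrays and 977 of 12600 with quantile normalization. The background thus moved up along with the list. Over all genes called, 36.3% rose as deposited, against 59.9% with centred arrays and 56.1% with quantile normalization. Without the genotype block, 0 genes of the list rose and 0 fell, with 1544 of 12591 genes at an unadjusted p under 0.05 by limma. There the genotype differences enter the residual, so these counts do not decide whether the list differs by stage. Single calls near the threshold also moved: Bub1b and Ndc80 (adjusted p = 0.0589 and 0.0558, limma with a variance trend) and Melk (adjusted p = 0.0502, limma on the mean of probe sets) no longer passed. No call changed direction. In miR-142-/- the low signal is the limit, with 17 genes below background in Qa2- and 13 in Qa2+ cells. Genotype was not tested, with or without pairing by population, because both arrays of a genotype come from 1 pool of mice and are not replicates.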

Other observations

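S phase and mitosis genes differed in how the stages compared. In WT the median stage difference was 0.08 for 28 S phase genes and 0.51 for the mitosis genes. In miR-142-/- it was 0.24 and 0.10, so the list with the higher value was not the same in the genotypes. Of the S phase genes 5 rose and 2 fell by limma with genotype as a block, and Rrm2, a ribonucleotide reductase subunit, rose by 0.54 ± 0.10 (limma adjusted p = 0.0135). Cdc25b, the phosphatase that starts Cdk1 activation, had the largest rise among the further periodic genes, 1.07 ± 0.16 (limma adjusted p = 0.00587), from 1.43 for the WT pair and 0.72 for the miR-142-/- pair, and Cenpl, of the inner kinetochore, fell by 0.43 ± 0.10 (limma adjusted p = 0.033).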
